A study of Mus musculus with 57 samples.

Results

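The genes described here encode the subunits of the mitochondrial oxidative phosphorylation system. They were taken from the expression table by symbol: Nduf genes of the A, B, C, S and V series for complex I, Sdha to Sdhd for complex II, Uqcr genes for complex III, Cox4 to Cox8 genes for complex IV and Atp5 genes for complex V. This gave 79 of the 10565 genes in the table, namely 35 for complex I, 4 for complex II, 8 for complex III, 15 for complex IV and 17 for complex V. The symbols are printed as in the deposited table, older names included. The symbol rule also takes 3 genes that do not encode subunits of these complexes: Cox4nb (now Emc8, part of a membrane protein insertion complex), Atp5s (now Dmac2l) and Atp5sl (now Dmac2). The rule misses subunit genes with other symbols, such as Cyc1, Ndufab1 and Usmg5, which were placed in a list of carriers and partner proteins used below. Ndufa4 was counted with complex I by its symbol, although its protein is now known as a partner of complex IV.

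Oxidative phosphorylation is the process by which mitochondria turn the energy of reduced cofactors into ATP. Complexes I and II pass electrons from NADH and succinate to ubiquinone, complex III passes them on to cytochrome c, and complex IV passes them to oxygen. Complexes I, III and IV pump protons out of the matrix, and complex V, the ATP synthase, uses the return of those protons to make ATP. Complexes I, III, IV and V also hold subunits encoded in the mitochondrial genome, which were not analysed here. Activated T cells are known to raise glycolysis sharply while they also enlarge their mitochondrial capacity.

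Expression was measured in 56 single T helper 2 (Th2) cells, all from 1 group. Wild type C57BL/6 mice aged 8 weeks gave splenic CD4+ T cells, which were activated through CD3 and CD28 and driven to the Th2 fate with IL-4 and an antibody to IFNγ. IL-2 was given after 2 days, culture lasted 5 days, and the cells were restimulated through CD3 and CD28 before single cells were caught in the chambers of a Fluidigm C1 chip. The labels name no separate mice or cultures and give no unstimulated cells, so the 56 cells are 1 sample: spreads below are between cells, correlations over cells are descriptions, and no test was run. The bulk sample, a pool of 10000 such cells, is not analysed here. Values are in TPM, transcript abundance scaled by transcript length and to a fixed total per cell, so that genes can be compared. They carry no information on how deeply a cell was sequenced, and a value of 0 is reported as listed at 0.

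The cells carried 2679 to 8396 genes at 1 TPM or more, the level taken here as detected, with a median of 4743.5. The Th2 master regulator Gata3 had a mean of 904 TPM and the T cell receptor gene Cd3d one of 1357 TPM, both detected in all 56 cells. The T cell genes Cd2 and Cd3e were also detected in 56 cells and Cd3g in 54, with Cd3e lower at a mean of 100.7 TPM. Cd4 was detected in only 37 cells, with a mean of 47.4 TPM and a median of 8.5 TPM. Of the markers of other cell types that had a row, the mast cell protease gene Cpa3 was detected in 5 cells, the CD8 gene Cd8b1 in 1 and the erythroid gene Alas2 in 2. The titles number the cells within sets T1 (8 cells) to T5 (12 cells in each of T2 to T5), whose meaning the labels do not give. Cells T3_2 and T3_5 stood apart. T3_2 had 3096 genes, and its median ratio to the other cells over the 398 genes detected in every cell was 0.150, against 0.783 to 1.36 elsewhere. T3_5 had 8396 genes, the most of all cells.

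The oxidative phosphorylation genes were among the more abundant genes of these cells. Their summed level per cell was 3996 TPM at the lowest (T3_2), 35458 TPM at the median and 55334 TPM at the highest (T3_6), with an SD over cells of 7736 TPM. The next lowest cell after T3_2 had 22877 TPM. Without T3_2 and T3_5 the summed level thus varied 2.42-fold, with a coefficient of variation (CV, the SD divided by the mean) of 0.184. At the median the genes held 3.55% of all TPM. The 73 cytosolic ribosomal protein genes summed to 80613 TPM at the median, the 38 proteasome genes to 17846.5 TPM and the 76 mitochondrial ribosomal protein genes to 12195.5 TPM.

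**Figure D1:**
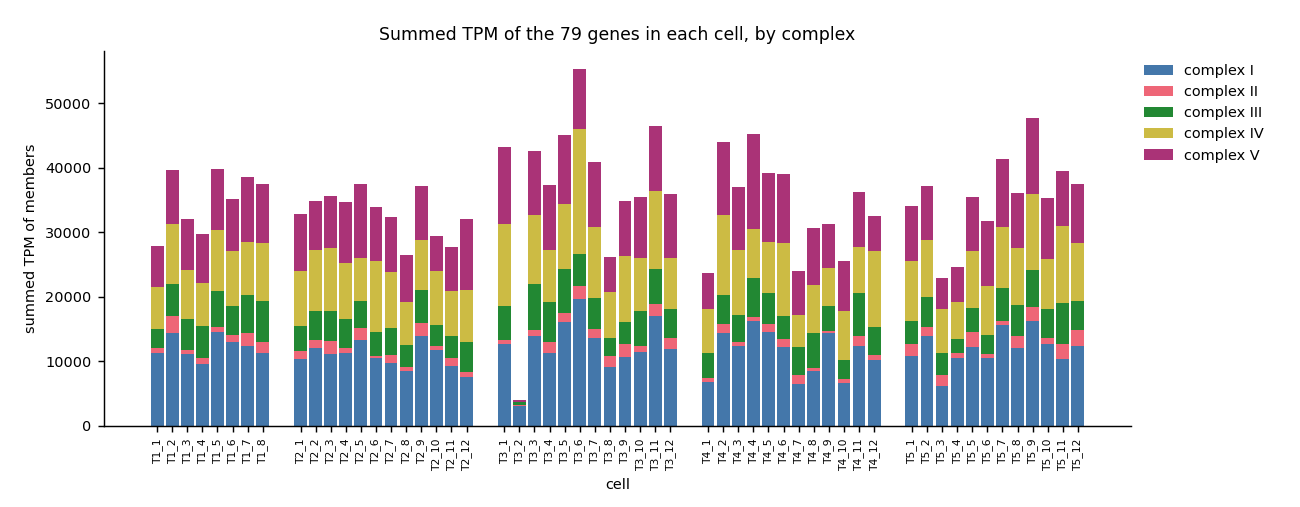
Summed TPM of the 79 oxidative phosphorylation genes in each of the 56 cells (vertical axis, TPM; horizontal axis, cells ordered by set), with 1 bar per cell split by complex. Cell T3_2 stands at 3996 TPM, and the other cells lie between 22877 and 55334 TPM.

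Set medians of the summed level ran from 33384 TPM in T2 to 39029 TPM in T3, a span smaller than the SD over cells. In T3_2, 51 of the 75 genes that were detected in at least 10 cells were listed at 0, and 24 of the 79 were detected. Complex IV was lowest there, with 75 TPM in all, against 4994 TPM in the next lowest cell. Ndufb7, an accessory subunit of complex I, was at 1820 TPM in T3_2, its highest value in any cell. Ndufv3, another accessory subunit, was at 167 TPM there, above its median of 61.5 TPM. In T3_6, the cell with the highest sum, 11 of the 79 genes reached their highest value.

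By the sum of the mean levels of its genes, complex I came first with 11716 TPM, followed by complex IV with 8736 TPM, complex V with 8653 TPM, complex III with 4512 TPM and complex II with 1258 TPM. These sums add up different numbers of genes. The median of the gene means was 551 TPM for complex III, 475 TPM for complex V, 420 TPM for complex IV, 334 TPM for complex I and 200 TPM for complex II. In the median cell, complex I made up 33.3% of the summed level, complexes IV and V 24.5% each, complex III 12.6% and complex II 3.25%. Complexes IV and V were close in level, with a median ratio of 0.998 and a range of 0.286 to 2.12.

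Between cells the summed levels of complexes I, III, IV and V varied to a like degree, and complex II varied more. Without T3_2 and T3_5 the CV was 0.219 for complex V, 0.231 for complex I, 0.234 for complex III, 0.261 for complex IV and 0.479 for complex II. Complex II has only 4 genes, and a sum over fewer genes averages out less of each gene's spread. Its share of the summed level ran from 1.13% in T2_6 to 7.40% in T5_3. Set medians of complex II ran from 732 TPM in T4 to 1768 TPM in T5, a wider relative span than for complexes I (10804 to 12330 TPM) or V (8239 to 9921 TPM).

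Most members were detected in nearly every cell: 62 of the 79 in at least 50 cells and 16 in all 56. A mean of at least 100 TPM was reached by 64. Of the members' values, 12.5% were 0, against 55.4% of all values in the table. Detection in at least 10 cells was reached by 75, and the 4 that did not were Cox4i2, Cox6a2, Cox6b2 and Atp5s.

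**Figure D2:**
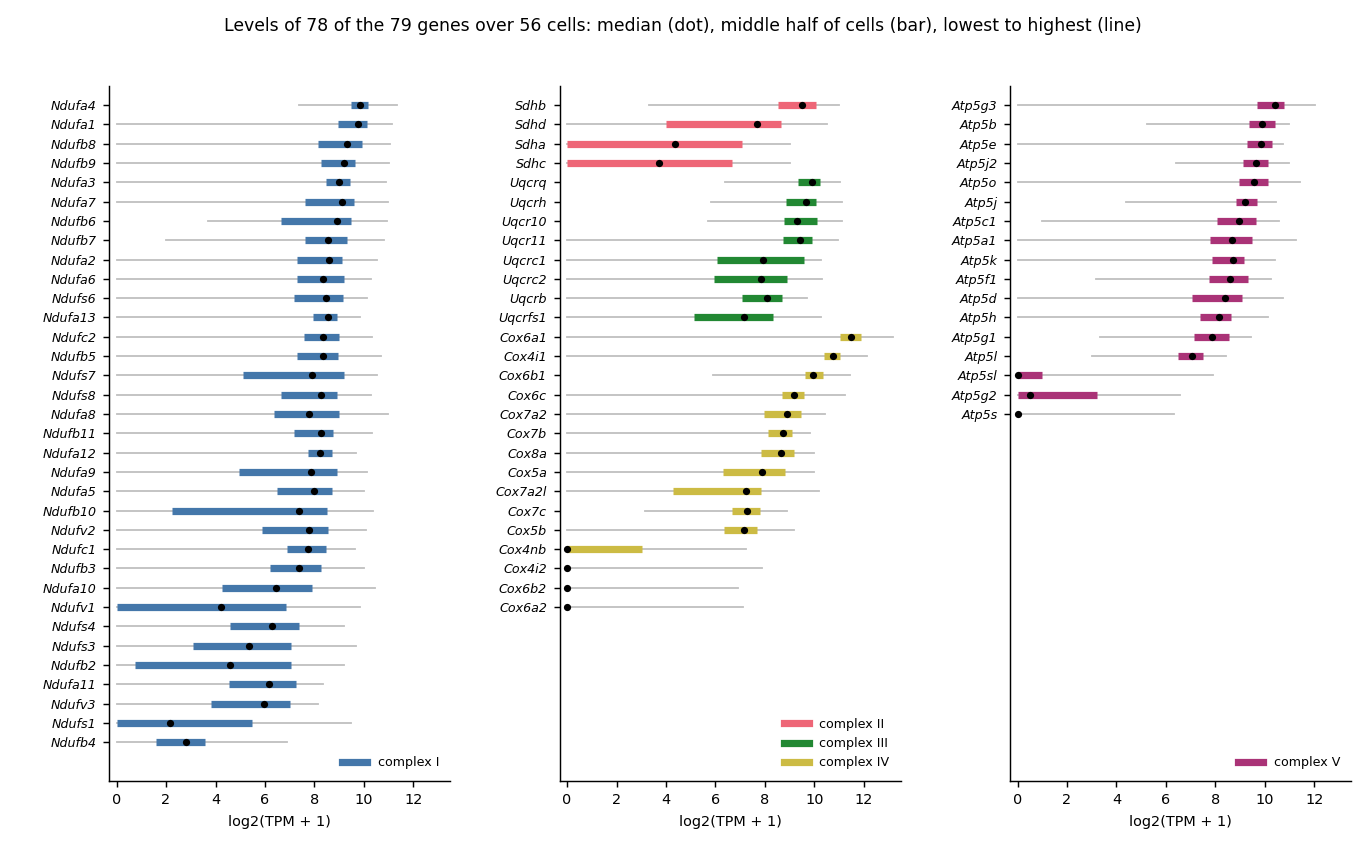
Level of 78 of the 79 genes over the 56 cells, as log2(TPM + 1), ordered within each complex by mean TPM: dots are medians, thick bars the middle part of the cells (25% trimmed at each end) and thin lines the lowest to the highest cell. Cox6a1, Cox4i1 and Atp5g3 lie highest, and Cox4i2, Cox6a2, Cox6b2 and Atp5s have medians of 0.

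In complex I, Ndufa4 had the highest mean, 933 ± 454 TPM (SD, n = 56 cells), with 163 TPM in the lowest cell, 915.5 at the median and 2604 in the highest cell. Ndufa1, an accessory subunit needed for assembly, followed with 834 ± 426 TPM, listed at 0 in T3_2 alone, with a median of 868.5 and a highest value of 2234 TPM. Both were thus present at high level in nearly every cell. At the other end, Ndufb4, an accessory subunit of the membrane arm, had a mean of 10.6 ± 18.6 TPM, with a median of 6 and a highest value of 117 TPM. It was detected in 51 cells.

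The 7 core subunits of complex I in the table belong to the conserved part of the enzyme that carries electrons from NADH to ubiquinone, and they were lower than the accessory subunits. The median of their mean levels was 132 TPM, against 338 TPM for the 27 accessory subunits. Ndufs7 had 351 TPM, Ndufs8 343 TPM and Ndufv2 266 TPM, whereas Ndufs1, the largest subunit of the electron-input arm, had 57.9 ± 125 TPM and was detected in 37 cells. Ndufv1, which binds NADH, had 132 ± 232 TPM and was detected in 39 cells. Both were thus at or near 0 in many cells and far above their mean in a few.

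Core genes have longer transcripts, with a median of 1623 bases, against 875 for accessory genes in the GENCODE vM21 annotation, taking each gene's longest coding transcript. Over the 35 genes of complex I, Spearman's rho between transcript length and mean TPM was -0.66, and over the 75 members detected in at least 10 cells it was -0.48. These correlations are across genes, which are not independent replicates. TPM is already divided by length, and the part of length in the difference between core and accessory genes was not tested.

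Among the 4 subunits of succinate dehydrogenase (complex II), Sdhb, which carries the iron-sulphur clusters, was highest at 774 ± 484 TPM, with a lowest value of 9, a median of 725.5 and a highest value of 2026 TPM. Sdhd, a membrane anchor, had 311 ± 348 TPM and was detected in 47 cells. The catalytic flavoprotein Sdha had 89.9 ± 136 TPM with a median of 20 TPM, and the other anchor, Sdhc, had 83.1 ± 137 TPM with a median of 12 TPM. Sdha was listed at 0 in 20 cells and Sdhc in 17. The iron-sulphur subunit was thus high in most cells, and the flavoprotein and the Sdhc anchor were low or at 0 in many.

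In complex III the small subunit Uqcrq was highest, at 1001 ± 496 TPM, with 83 TPM in the lowest cell, a median of 951 and 2086 TPM in the highest cell. Uqcrfs1, the Rieske iron-sulphur protein and the catalytic subunit in the list, was lowest at 220 ± 252 TPM, with a median of 142.5 and a highest value of 1241 TPM. The core proteins Uqcrc1 and Uqcrc2, which form the matrix domain, lay between, at 405 ± 390 and 296 ± 285 TPM. All 8 genes of complex III were detected in at least 50 cells.

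Complex IV held the 2 most abundant members. Cox6a1 reached 3056 ± 1536 TPM, listed at 0 in T3_2 alone, with a median of 2888.5 and 9373 TPM in T3_6. Cox4i1, which carries a nucleotide-binding site and helps set the activity of the enzyme, had 1829 ± 900 TPM, a median of 1737 and a highest value of 4488 TPM, also in T3_6. Cox4nb, the lowest gene of this group that was detected in at least 10 cells, had 9.18 ± 22.8 TPM and was detected in 26 cells.

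Several subunits of complexes IV and V exist as isoforms from separate genes, and here 1 isoform held most of the TPM in each family. Cox4i1 held 99.5% of the mean TPM of the Cox4i pair, Cox6a1 99.9% of the Cox6a pair and Cox6b1 99.6% of the Cox6b pair. The other members of those pairs are known from other tissues. Cox4i2, known from lung, was detected in 3 cells with a highest value of 234 TPM. Cox6a2, known from heart and muscle, was detected in 5 cells with a highest value of 138 TPM, and Cox6b2, known from testis, in 3 cells with a highest value of 118 TPM. Cox7a2 had 499 ± 309 TPM, and Cox7a2l, which encodes a factor for the assembly of respiratory supercomplexes, had 187 ± 226 TPM and was detected in 48 cells. Cox8a, the only Cox8 gene in the list, had 407 ± 234 TPM.

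In the ATP synthase the membrane ring gene Atp5g3 was highest at 1372 ± 792 TPM, with a median of 1375 and a highest value of 4125 TPM. Atp5g1 and Atp5g2 encode the same ring subunit. Atp5g3 held 83.4% of the family's mean TPM, Atp5g1 16.1% with 265 ± 157 TPM, and Atp5g2 0.462% with 7.59 ± 15.5 TPM. The catalytic head gene Atp5b had 986 ± 518 TPM, from 37 to 2034 TPM with a median of 958.5, and was detected in every cell. Its partner Atp5a1, which is present in the enzyme in equal number with Atp5b, had 498 ± 442 TPM.

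Some of these levels are uncertain because the genes share sequence with transcripts of other genes. Stretches were matched on either strand to a transcript of any other gene, so a match need not be a copy elsewhere in the genome. Cox5b, for example, shares 25.9% of its stretches with 1 other gene, which is not a pseudogene, and Atp5g1 shares 11.6% with 366 genes. Of the 79 members, 46 share at least 1 stretch of 50 bases with a transcript of another gene in GENCODE vM21, and 5 share at least 50% of their 50-base stretches: Atp5g2 (100%), Atp5l (84.8%), Cox7c (53.0%), Atp5h (50.5%) and Atp5o (50.3%). Uqcrb shares 43.4%, Ndufs3 39.7%, Atp5f1 38.7% and Ndufb4 37.0%. Over the 75 members detected in at least 10 cells, Spearman's rho between the shared percentage and mean TPM was -0.16. The sources used here do not say how reads with several matches were counted. Outside the module, Gapdh, a glycolytic gene usually among the most abundant of a cell, shares 90.4% of its 50-base stretches and was listed at a mean of 29.2 TPM. Eno1, also glycolytic, shares 72.2% and was listed at 9.54 TPM. The levels of these 9 members should therefore be set against those of others with caution.

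Cell-to-cell variation was described by the squared CV, and its excess is log2 CV squared minus the running median over that gene and the 50 genes on either side in mean TPM. An excess of 1 thus means a squared CV 2 times that of genes of like mean, and values above 1 or below -1 were called. Among the 75 members detected in at least 10 cells, 16 lay below -1, which is 21.3%, against 15.1% of the 7871 genes that met the same filter. No member lay above 1, where 13.1% of all genes did, and 2 members did without set T3, where 11.8% of all genes did. The median excess was -0.30 for the members and 0.00 for all genes. Of 595 genes whose means lay within the middle range of the members' means, 13.4% were below -1 and 14.1% above 1.

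The count of members below -1 was 17 without T3_2, 17 without T3_5 and 17 without both, against 15.3%, 15.3% and 15.7% of all genes. The other 3 sets of genes made of many subunits lay on either side. Among cytosolic ribosomal protein genes 58 of 73 were below -1, among mitochondrial ribosomal protein genes 13 of 76, and among proteasome genes 4 of 38. The share of all genes below -1 was 15.1%. Above 1 were 1, 3 and 0 genes of these lists in that order, against 13.1% of all genes, so a low count there was not particular to the module.

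**Figure D3:**
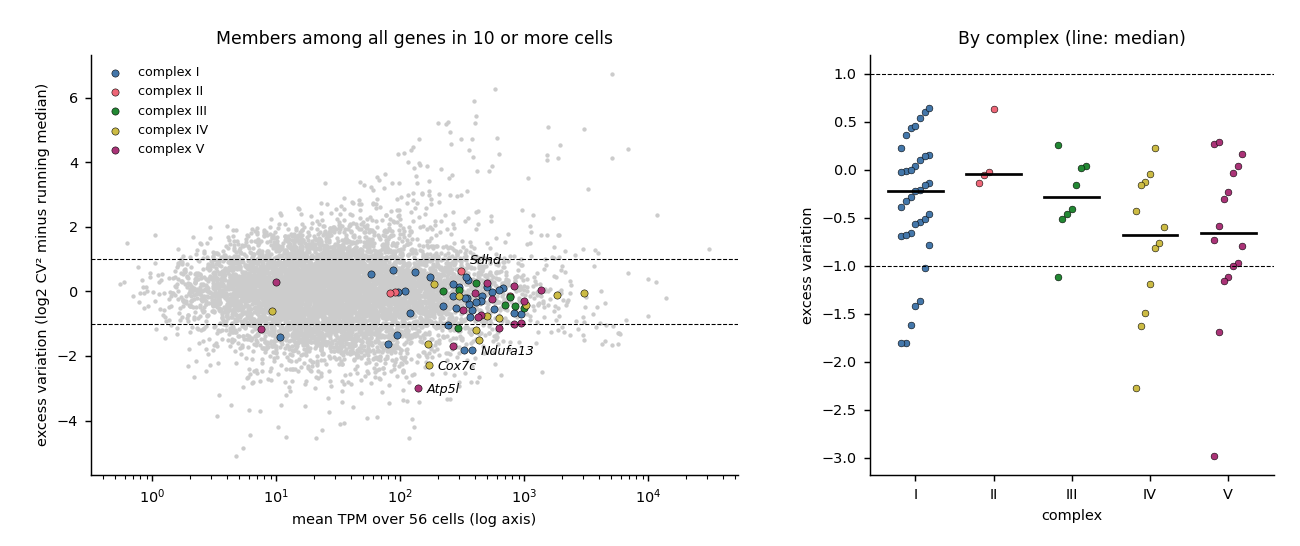
Left, excess variation of each gene detected in at least 10 of the 56 cells against its mean TPM (log axis), with all genes in grey and the members coloured by complex. Right, the members' excess by complex with the median as a line. Dashed lines mark 1 and -1; the lowest member is Atp5l at -2.98, and no member lies above 1.

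By complex, 6 of 35 members of complex I, 0 of 4 of complex II, 1 of 8 of complex III, 4 of 12 of complex IV and 5 of 16 of complex V were below -1. The share was 17.1% for complex I and 12.5% for complex III, near the 15.1% of all genes. It was 33.3% for complex IV and 31.25% for complex V. The median excess was -0.22, -0.04, -0.29, -0.68 and -0.66 in that order. The lowest value was that of Atp5l, the g subunit of the ATP synthase membrane part, with an excess of -2.98, a mean of 138 ± 69.7 TPM and a range of 7 to 345 TPM. Cox7c, a small subunit of complex IV, followed at -2.27, with 170 ± 101.1 TPM and a range of 8 to 476 TPM. Both have many shared 50-base stretches, as given above.

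Within complex I the lowest excess was that of Ndufa12 and Ndufa13, at -1.80 each. Ndufa12 had 324 ± 156 TPM and Ndufa13, also known as GRIM-19 for its role in interferon and retinoic acid induced cell death, had 380 ± 181 TPM. For both, T3_2 was the only cell listed at 0. The other members of complex I below -1 were Ndufv3 (-1.62), Ndufb4 (-1.42), Ndufa11 (-1.37) and Ndufc1 (-1.03). None of the 7 core genes was below -1, and their median excess was 0.36. Of the 27 accessory genes, 6 were below -1 (22.2%, against 15.1% of all genes) and their median was -0.39. Ndufv1 had an excess of 0.60.

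In complex III, Uqcrb had the lowest excess, -1.12, and Uqcrc1 the highest, 0.26. In complex IV, Cox5b (-1.63), Cox7b (-1.49) and Cox8a (-1.19) were below -1 beside Cox7c, and Cox7a2l was highest at 0.23. In complex V, Atp5g1 (-1.69), Atp5g2 (-1.16), Atp5j (-1.12) and Atp5j2 (-1.004) were below -1 beside Atp5l, and the head genes were not: Atp5a1, at 0.27, was the highest true subunit. In complex II, Sdhd had 0.64, and Sdha, Sdhc and Sdhb lay between -0.14 and -0.03.

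The members below -1 were more frequent among genes with shared sequence. Of 30 members with no shared 50-base stretch, 2 were below -1, a smaller share than the 15.1% of all genes. Of 27 that shared up to 20% of their stretches, 6 were, and of 18 that shared more than 20%, 8 were. The median excess was -0.16, -0.30 and -0.81 in that order. Without the 5 members that share at least 50%, 13 of the remaining 70 genes were below -1, against 15.1% of all genes. The part of shared sequence in low variation was otherwise not tested.

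Members rose and fell together only weakly from cell to cell. The mean Spearman rho over the 2775 pairs of members was 0.096, against 0.043 over all pairs of genes and 0.042 over pairs of the genes of like mean. A rho of at least 0.3 was found in 210 pairs of members, 7.57%, against 3.11% of all pairs of genes. Without T3_2 and T3_5 the mean rho between members was 0.056, and with the number of genes detected per cell held constant (partial rho) it was 0.069. The corresponding values over all genes were 0.030 and 0.009. Pearson's r of log2(TPM + 1) had a mean of 0.22 between members and 0.042 over all genes. That value includes T3_2, where 51 of the 75 members are listed at 0, and no mean of Pearson's r without T3_2 is given. For other lists the mean rho was 0.084 for the mitochondrial ribosome, 0.097 for the proteasome, 0.157 for the cytosolic ribosome and 0.374 for genes of the G2 and M phases of the cell cycle.

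Genes of the same complex were scarcely closer to each other than genes of different complexes. The mean rho was 0.1004 over the 815 pairs within complexes and 0.094 over the 1960 pairs between them. These were 0.070 and 0.068 with genes detected held constant, and without T3_2 and T3_5 they were 0.065 and 0.052. Within single complexes the mean rho was 0.129 for IV, 0.099 for I, 0.098 for V, 0.089 for III and 0.080 for II. Within complex I it was 0.114 among accessory genes and 0.033 among core genes.

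**Figure D4:**
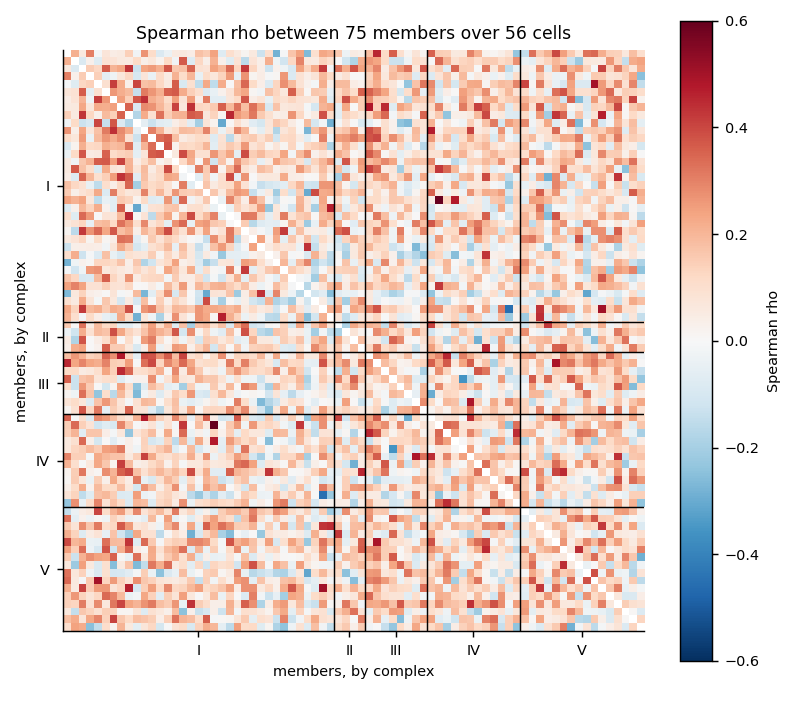
Spearman rho over 56 cells for each pair of the 75 members detected in at least 10 cells, ordered by complex, with black lines between complexes and the diagonal left blank. Blocks on the diagonal (mean rho 0.1004) do not stand out from the rest (mean rho 0.094).

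Scores averaged over a complex, each the mean of z-scored log2(TPM + 1) of its genes, tracked each other more closely than single genes did. The scores of complexes I and V had a rho of 0.62, those of III and V 0.57, those of II and V 0.51 and those of I and III 0.50. The pair of complexes II and IV was lowest at 0.09. The order depended on the measure: for summed TPM, which the most abundant genes dominate, II and V were lowest at 0.14 (rho), and II and IV had 0.32. With genes detected held constant, the scores gave 0.51 for I and V, 0.47 for III and V, and -0.03 for II and IV. Scores over more genes average out more of the noise of single genes, so the values for complex II, with 4 genes, are not on the same footing as those for complex I.

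By the symbol rule, none of the 5 pairs of members with the highest rho lay within the same complex, as was so for 1960 of all 2775 pairs. The first of the 5 includes Cox4nb, which encodes no subunit of these complexes. They were Cox4nb with Ndufb6 (0.62), Atp5j with Ndufv2 (0.51), Atp5h with Ndufa13 (0.50), Atp5e with Uqcr11 (0.49) and Cox6b1 with Uqcrh (0.48). The partial values were 0.53, 0.45, 0.49, 0.45 and 0.49. The lowest of all pairs was Cox7c with Ndufv2, at -0.45. Atp5e, the epsilon subunit of the ATP synthase head, had 939 ± 415 TPM, from a listed 0 in T3_2 to 1717 TPM in T4_6 with a median of 909 TPM. Uqcr11, a small subunit of complex III, had 697 ± 416 TPM, from a listed 0 in T3_2 to 2010 TPM in T5_9 with a median of 681 TPM.

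Promoters of nuclear genes for these complexes are known to carry sites for NRF1, for ETS-family factors such as GABP and for YY1. A RefSeq promoter (GRCm38.p6, 250 bases before to 50 after the start, a later build than the mm9 of the expression table) was matched to 65 members. The core motifs of these factors were searched on both strands, each counted on its own even where matches overlapped. The NRF1-type letters GCGCANGCG were found in 19 of 65 members (29.2%), against 16.6% of the 8369 genes of the expression table with a promoter and 7.03% of all 27025 genes. The ETS-type letters CCGGAAG were found in 16 members (24.6%), against 22.4% and 9.93%. The YY1-type letters AANATGGCG were found in 11 members (16.9%), against 6.76% and 2.76%. In the members they lay in 7 of 31 complex I promoters and 4 of 16 complex V promoters.

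Of the 5 closest pairs, Atp5e with Uqcr11 and Cox6b1 with Uqcrh had an ETS-type match in both promoters. The share of all pairs of members with such a match in both was not computed, and a link between match and rho was not tested. The 250 bases before the start are shown for Atp5e, Uqcr11 and Uqcrh, chosen after their values were seen, to let the matches be read in place. They run 5′ to 3′ on the gene's strand, with the match, on either strand, in capitals. They lie at chr2:174464102-174464351 (minus strand), chr10:80406822-80407071 (minus strand) and chr4:116075071-116075320 (minus strand) of GRCm38.p6.
Atp5e: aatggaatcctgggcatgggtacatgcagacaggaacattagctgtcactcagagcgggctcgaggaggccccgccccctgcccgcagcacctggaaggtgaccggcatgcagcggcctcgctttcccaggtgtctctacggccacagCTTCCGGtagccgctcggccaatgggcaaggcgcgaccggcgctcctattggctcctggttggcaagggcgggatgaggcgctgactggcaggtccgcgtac
Uqcr11: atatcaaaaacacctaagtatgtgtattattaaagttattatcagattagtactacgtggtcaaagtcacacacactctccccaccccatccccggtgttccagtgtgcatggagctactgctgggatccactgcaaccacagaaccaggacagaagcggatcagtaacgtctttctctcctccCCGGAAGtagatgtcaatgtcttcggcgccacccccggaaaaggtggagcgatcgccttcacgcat
Uqcrh: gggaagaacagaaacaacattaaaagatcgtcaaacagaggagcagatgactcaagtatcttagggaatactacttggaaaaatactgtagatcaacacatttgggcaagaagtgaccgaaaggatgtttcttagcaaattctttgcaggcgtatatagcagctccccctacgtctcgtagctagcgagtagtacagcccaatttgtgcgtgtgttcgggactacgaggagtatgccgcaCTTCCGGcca

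The match is on the strand opposite the gene in Atp5e and Uqcrh and on the gene's own strand in Uqcr11. Among the genes of the corresponding factors, Nrf1 had 39.8 ± 72.9 TPM in 33 cells and Yy1 48.5 ± 145 TPM in 38 cells. Gabpb1, which pairs with Gabpa to form GABP, had 55.0 ± 82.8 TPM in 42 cells, and Gabpa 17.0 ± 33.2 TPM in 29 cells. In that order, the rho of these genes with the module score was 0.16, 0.16, 0.21 and 0.09. With genes detected held constant it was -0.05, 0.06, 0.005 and -0.13.

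To relate the genes to cycling and to cytokines, the module score (the mean z-scored log2(TPM + 1) of the 75 members) was set against the same kind of score for G2/M genes, G1/S genes and 11 Th2 cytokine genes. The rho over 56 cells was 0.43 with the G2/M score, 0.35 with the G1/S score and 0.26 with the cytokine score. The module score had a higher rho, 0.66, with the number of genes detected in the cell, and the G2/M, G1/S and cytokine scores had 0.56, 0.47 and 0.53 with it. With genes detected held constant, the module score had a rho of 0.09 with the G2/M score, 0.06 with the G1/S score and -0.13 with the cytokine score. The summed TPM of the members in place of the score gave 0.19, 0.13 and -0.14.

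**Figure D5:**
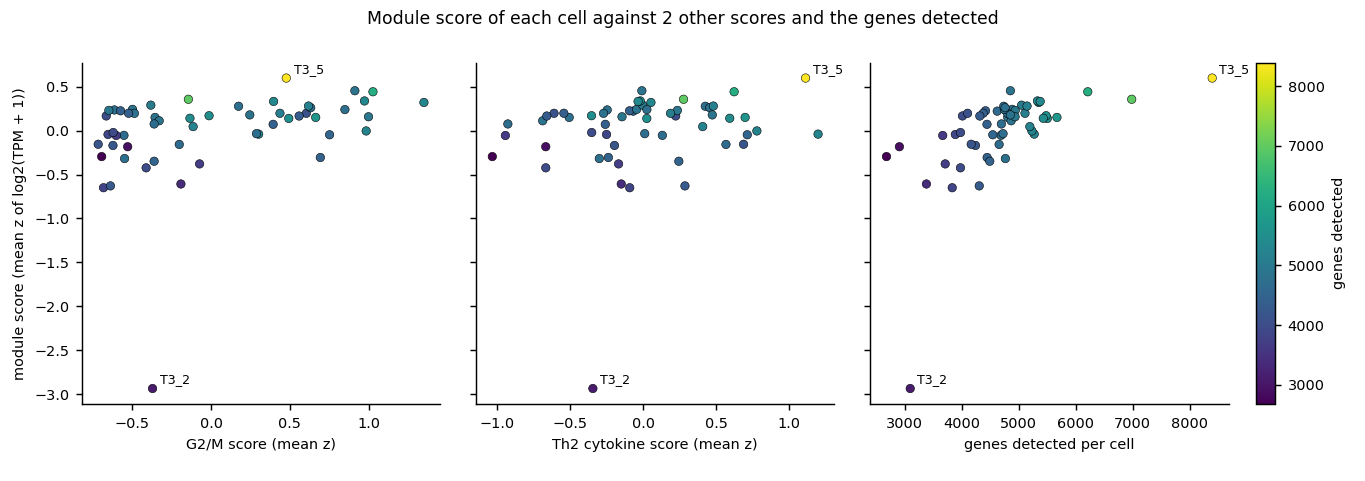
Module score of each of the 56 cells (vertical axis, mean z of log2(TPM + 1)) against the G2/M score, the Th2 cytokine score and the number of genes detected, with points coloured by genes detected and T3_2 and T3_5 named. The rho is 0.43, 0.26 and 0.66 from left to right, and T3_2 lies far below the other cells in each panel.

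The sets differed in these values. For the G2/M score rho ran from -0.12 in T1 to 0.72 in T3 and was positive in 4 of 5 sets. For the cytokine score it ran from -0.32 in T2 to 0.71 in T3 and was positive in 4 of 5. Each set holds 8 or 12 cells, and T3 includes both cells that stood apart. Without set T3 the rho was 0.32 with the G2/M score, 0.24 with the G1/S score and 0.05 with the cytokine score. Without set T1 it was 0.56 with the G2/M score.

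Of the complexes, complex I had the highest rho with the G2/M score, 0.50, followed by III (0.36), V (0.29), IV (0.23) and II (0.04). The partial values were 0.18, 0.14, 0.08, -0.03 and -0.13. In all, 10 of 75 members (13.3%) had a rho of at least 0.3 with the G2/M score, against 9.05% of all genes outside that score. They were Ndufb3 (0.47), Ndufa4 (0.47), Ndufa5 (0.43), Ndufs1 (0.42), Ndufa11 (0.40), Cox7a2 (0.37), Uqcr10 (0.35), Uqcrfs1 (0.33), Uqcrb (0.32) and Atp5j (0.30). By partial rho, 3 of 75 reached 0.3: Ndufb3 (0.43), Ndufa4 (0.38) and Cox7a2 (0.31). That is 4% of members, against 2.62% of all genes under the same measure.

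At the other end, Atp5d, the delta subunit of the ATP synthase head, had a rho of -0.33 with the G2/M score. It was the only member at -0.3 or lower, where 0.243% of all genes lay. By partial rho it had -0.35 and Cox7c -0.30, so that 2 members were at -0.3 or lower, against 1.92% of all genes. Its level was 400 ± 352 TPM, from a listed 0 to 1682 TPM in T4_4, with a median of 334.5 TPM. With the G1/S score, 3 members had a rho of at least 0.3, Uqcr10 (0.37), Cox8a (0.34) and Ndufs3 (0.31), against 8.48% of all genes, and 0 were at -0.3 or lower, against 0.243%.

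With the cytokine score, 5 of 75 members (6.67%) had a rho of at least 0.3, against 7.54% of all genes, which is near the background. These were Ndufb8 (0.43), Cox5b (0.36), Ndufb6 (0.36), Cox4nb (0.31) and Ndufs1 (0.30). The count was 3 without T3_5 and 2 without set T3, against 6.22% and 4.75% of all genes, the score's own included. With genes detected held constant the count was 0, against 1.73% of all genes outside the score. Ndufa13 was the only member at -0.3 or lower, with -0.32, where 0.267% of all genes lay. By partial rho it had -0.27, and Ndufb11, at -0.32, was the only member at -0.3 or lower, against 1.16% of all genes.

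Single cytokines differed in their relation to the module score. Il4, which is made by Th2 cells and whose protein was also added to the culture, had the highest rho, 0.31, and was detected in 54 cells. It was followed by Il10 (0.22), Il24 (0.18), Il3 (0.15), Il13 (0.14), Il5 (0.11), Areg (0.09), Il6 (0.05), Il9 (0.02) and Il31 (0.005). Csf2, which encodes GM-CSF, was the only cytokine below 0, at -0.15. With genes detected held constant, Il4 had 0.09, Il24 0.16 and Csf2 -0.31, and the other 8 lay between -0.29 and -0.04. Il13 was detected in 31 cells, Il31 in 24, Il5 in 14 and Il6 and Il9 in 13 each, so their ranks hold many ties at 0. The sets also differed: rho ran from -0.03 in T5 to 0.65 in T3 for Il4, and from -0.51 in T1 to 0.78 in T3 for Il31.

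Other genes of energy metabolism and mitochondria, and proteasome genes, tracked the module more closely than the cell cycle or cytokine scores did. With genes detected held constant, the rho with the module score was 0.54 for 26 carriers and partner proteins, 0.51 for 17 glycolytic genes, 0.46 for the mitochondrial ribosome, 0.42 for the proteasome, 0.42 for 18 genes of the citric acid cycle and 0.33 for 26 assembly factors. Without that adjustment these were 0.71, 0.71, 0.73, 0.68, 0.66 and 0.49. The carrier and partner list includes Cyc1, Ndufab1 and Usmg5, whose own partial rho was 0.33, 0.01 and 0.31. These are subunit genes, so that list is not fully separate from the complexes, and its score was not computed without them. The cytosolic ribosome had 0.28 with the adjustment and 0.35 without it. All of these except the cytosolic ribosome were positive in each of the 5 sets. With summed TPM on both sides, rho was 0.47 for the proteasome and 0.44 for glycolytic genes. It was 0.42 for the mitochondrial and 0.35 for the cytosolic ribosome. By set, rho of summed TPM was less even: for the proteasome it was positive in 3 of 5 sets, with -0.19 in T1. For glycolytic genes it was positive in 5 sets, with 0.007 in T5. For the mitochondrial ribosome it was positive in 5 sets and for the cytosolic ribosome in 4. The gap between these values and those for the cycle and cytokine scores was not tested.

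Among carriers and partners, Slc25a5, the ADP/ATP carrier of dividing cells, was highest at 3804 ± 1329 TPM, and its rho with the module score was 0.36. Slc25a4, the muscle-type carrier, had 554 ± 429 TPM and 0.32, Slc25a3, the phosphate carrier, 938 ± 674 TPM and 0.27, and Etfb, an electron transfer flavoprotein, 872 ± 649 TPM and 0.26. Their partial rho was 0.28, 0.27, 0.24 and 0.12 in that order. In this list 5 of 26 genes had an excess below -1 and 2 above 1, against 15.1% and 13.1% of all genes. Among assembly factors, Cox17, the copper chaperone of complex IV, was highest at 446 ± 240 TPM, with an excess of -1.30 and a rho of 0.20, or 0.13 by partial rho. Of 26 assembly factors, 3 were below -1 and 2 above 1, to be set against the same shares of all genes. The median of the list's mean levels was 33.4 TPM, against 357 TPM for the members.

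In the citric acid cycle, Mdh2, the mitochondrial malate dehydrogenase, was highest at 1616 ± 819 TPM, with a rho of 0.12. Suclg1, a subunit of succinyl-CoA ligase, had 298 ± 318 TPM and 0.41, or 0.30 by partial rho. Of the 18 genes, 0 were below -1 and 1 was above 1, against 15.1% and 13.1% of all genes. Among glycolytic genes, Aldoa had 1966 ± 979 TPM and a rho of 0.12, Pkm2 1599 ± 907 TPM and 0.19, Ldha 1139 ± 988 TPM and 0.24 and Hk2 385 ± 366 TPM and 0.32. Of 17 glycolytic genes, 4 were below -1 and 3 above 1, to be set against the same shares of all genes. Ldha, which turns pyruvate into lactate, was among the 3, at 1.10. The 4 were Pgam1, Eno1, Gapdh and Pgk1. Pgam1, Eno1 and Gapdh share 41.5%, 72.2% and 90.4% of their 50-base stretches with transcripts of other genes, so this count is uncertain. By partial rho, Aldoa had 0.27, Pkm2 0.41, Ldha 0.23 and Hk2 0.14. Among 13 regulators of mitochondrial genes or metabolism, Myc had 394 ± 574 TPM with an excess of 1.34 and a rho of 0.06, and Hif1a had 122 ± 140 TPM with a rho of 0.28, or 0.11 by partial rho. Among 13 genes of mitochondrial stress and oxidant defence, 3 were below -1 and 2 above 1, against 15.1% and 13.1% of all genes. The superoxide dismutase gene Sod1 was highest among them at 3165 ± 1513 TPM with a rho of 0.24.

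Outside the module, 4240 genes detected in at least 28 cells were ordered by their rho with the module score. The 8 highest were Sub1 (0.61), Ctnnbl1 (0.59), Prdx1 (0.57), Cdc5l (0.57), Hnrpdl (0.56), Trappc1 (0.56), Ankrd32 (0.54) and Bub3 (0.54). Sub1 encodes a transcription coactivator and Prdx1 a peroxiredoxin, and they had 373 and 1421 TPM on average, in 56 cells each. By partial rho, Sub1 had 0.51, Prdx1 0.43, Trappc1 0.28 and Ankrd32 0.25. The 8 lowest were Rdh13 (-0.38), Cd44 (-0.35), Gp49a (-0.34), Lars2 (-0.33), Sdf4 (-0.31), Rab8b (-0.31), Dusp4 (-0.30) and Malat1 (-0.30). Cd44, an adhesion receptor of activated T cells, and Malat1, a nuclear long non-coding RNA, were detected in 56 cells each and had -0.32 and -0.40 with genes detected held constant, whereas Lars2 had -0.10.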

How the data were processed

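The deposited table is treated as a score: its values are whole numbers whose columns total 999202 to 999914, that is, TPM after rounding by the authors. Every gene in it reaches 5 TPM in some cell, and 0 columns could not be mapped to a cell. Per the submitters' processing notes, FastQC, Bowtie 0.12.2 and Cufflinks were used with mm9; their steps are not given in the sources used here. Depth is unknown, so no counting error was attached. The members and lists were chosen with earlier results of these data known.

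Scores, excess variation (7871 genes in at least 10 cells) and Spearman rho were computed with Python 3.11.15, pandas 2.3.3, numpy 2.4.6 and scipy 1.17.1 and tested on simulated data. Partial rho removes the rank of genes detected. All members could be named; described in full were the highest and lowest mean and excess in each complex, complex II, isoform families, extremes of rho, 5 pairs, 11 cytokines, 8 genes at each end and up to 4 genes per pathway list. GRCm38.p6 gave names and promoters, and GENCODE vM21 lengths and shared 50-base stretches, whose classes were set after the data were seen. The values of 1 member are not reported here.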

Additional observations from a re-analysis of the deposited data

How the results depend on the processing

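Of 156 recomputed values under 23 alternatives, 127 stayed close to the main value (counts and mean rho within 1.5 times, other rho within 0.1, level within 1 SD over cells). The summed level (30345 to 36154 TPM) and the count below -1 (12 to 19) did so in all of theirs. The share of all genes below -1 was then 13.7% to 15.7%. Members above 1 were 2 without set T3, 1 with no filter and 1 after rescaling by genes detected in every cell. Of all genes, 11.8%, 14.8% and 15.3% lay above 1 in that order. Mean rho between members was 0.060 without set T3, 0.056 without T3_2 and T3_5, 0.063 after rescaling and 0.22 as Pearson r of log2(TPM + 1). For the G2/M score, rho was 0.56 without set T1, 0.32 without set T3, 0.32 as Pearson r, 0.092 as partial rho and 0.19 with summed TPM. For G1/S it was 0.24 without set T3, 0.064 as partial rho and 0.13 with summed TPM. For the cytokine score it was 0.40 without set T2, 0.049 without set T3 and 0.16 without T3_2 and T3_5, and it turned to -0.13 as partial rho and -0.14 with summed TPM. Members at 0.3 or more with the G2/M score were 17 without set T1, 17 without set T2 and 3 as partial rho. All genes at 0.3 or more, those of the score included, then made up 12.6%, 12.9% and 3.11% in that order. With the cytokine score, 2 members reached it without set T3, 8 without set T5 and 3 without T3_5. The members were 3 without T3_2 and T3_5, 3 with at least 20 cells and 0 as partial rho. The share of all genes was 4.75%, 12.2%, 6.22%, 5.71%, 6.69% and 1.85% in that order. The cause of these shifts was not tested. The alternative without members that share 50% of their 50-base stretches was chosen after seeing the data. No paired analysis was possible because the cells form 1 group. TPM keeps no depth, which limits every statement on genes listed at 0.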
